A study of Mus musculus with 12 samples.

Results

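A group of 10 genes of fatty acid metabolism was followed through bone-marrow-derived macrophages (BMDMs) of wild-type (WT) mice and of mice lacking RasGEF1b, at rest and after LPS. They are *Fasn*, *Acaca*, *Elovl1*, *Elovl5*, *Elovl6*, *Scd1*, *Scd2*, *Fads1*, *Fads2* and *Mgll*, taken by symbol from the 55487 gene models of the normalized count table, by a rule that sets no threshold on measured values. Poly(A) RNA had been sequenced from 4 groups of 3 libraries, 12 in all. The WT group came from C57BL/6 mice and the KO group from *Rasgef1b*-fl/fl;CMVcre mice, both 8 to 12 weeks old. Macrophages of each were left untreated or received 100 ng/ml of LPS, the endotoxin of *Escherichia coli*, for 4 h. The Cre of the KO mice was driven by the CMV promoter, which deletes in most tissues, so the loss of *Rasgef1b* was not limited to macrophages. The WT mice were provided by an animal facility, and the sources used here do not call the groups littermates. All 10 genes reached a mean of at least 10 normalized counts, the minimum for testing, as did 12711 of all gene models over the 12 libraries.

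Libraries held 19316691 to 24977356 reads in genes, and 1 read was worth 0.660 to 1.41 normalized counts, so a value near 10 rests on few reads. *Rasgef1b*, the targeted gene, measured 2001 to 2171 normalized counts in untreated and 11844 to 12554 in LPS-treated WT libraries, and 545 to 695 and 3618 to 4192 in KO libraries. Its log2 fold change in KO against WT macrophages was -1.77 (SE 0.09) untreated and -1.65 (SE 0.07) after LPS, with limma adjusted p values of 1.29e-04 and 4.20e-06. The deletion described in the paper removes only some exons, so reads of the others can still be counted. By RT-qPCR the paper did not detect the mRNA in KO macrophages. Reads by exon were not examined here. All 8 macrophage markers (*Adgre1*, *Csf1r*, *Lyz2* and others) were well detected, whereas the 7 adipocyte markers summed to 0.0492 to 0.280 RPM (reads scaled to the total of a library) in any library, with *Lep* at 0, and the 8 stromal ones to 0.604 to 2.23. Neutrophil markers summed to 12.0 to 45.2, dendritic cell markers to 6.90 to 30.6, and T, NK and B cell markers to 3.23 to 14.9 RPM, with *Cd3d* and *Ncr1* at 0. Of the 9 T, NK and B cell markers, only *Cd4* reached a mean of 10, at group means of 92.3 to 216 normalized counts. Of the 7 dendritic cell markers 2 did, among them *Clec10a* at group means of 141 to 352. Of the 9 neutrophil markers 5 did, among them *S100a9* at group means of 129 to 271 and *Ngp* at 95.6 to 190. Replicate 1 of WT and replicate 2 of KO macrophages, untreated and LPS-treated, expressed *Xist* at 15146 to 18652 normalized counts and 4 Y-linked genes at a sum of 4.84 to 10.5, against *Xist* at 5.73 to 28.7 and Y-linked sums of 3707 to 4265 in the other 8 libraries. Each group thus held 1 library with this female pattern. A single ribosomal RNA gene model made up 5.06% of the untreated KO library of replicate 2 and 0.0398% to 0.0874% of each other library. In bulk cultures, fewer cells expressing a gene and less RNA per cell cannot be told apart.

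Fatty acids are built in the cytosol from acetyl-CoA. Acetyl-CoA carboxylase, encoded by *Acaca*, makes malonyl-CoA, and fatty acid synthase, encoded by *Fasn*, joins these units into palmitate. Elongases of the Elovl family then lengthen the chain, the stearoyl-CoA desaturases *Scd1* and *Scd2* place a double bond in saturated chains, and *Fads1* and *Fads2* add double bonds to polyunsaturated ones on the way to arachidonate, the precursor of prostaglandins in activated macrophages. Many of these genes are textbook targets of the SREBP and LXR transcription factors. *Mgll* is of another kind, since it encodes monoacylglycerol lipase, which releases fatty acids from monoacylglycerols and so takes no part in synthesis or desaturation.

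Because *Scd1* and *Scd2* are close copies, the separation of their reads bears on their values. *Scd2* lies at chr19:44293674-44306864 on the forward strand of GRCm38 and *Scd1* at chr19:44394455-44407879 on the reverse strand. Their coding sequences of 1077 and 1068 nt were 89.6% identical in a global alignment, and the longest stretch they share is 147 nt, from coding position 532 to 678 in *Scd2* and from 523 to 669 in *Scd1*. It is shown in capitals with 30 nt of coding sequence on each side, from the GENCODE transcripts of GRCm38, to show what a read from either gene can look like.
Scd1: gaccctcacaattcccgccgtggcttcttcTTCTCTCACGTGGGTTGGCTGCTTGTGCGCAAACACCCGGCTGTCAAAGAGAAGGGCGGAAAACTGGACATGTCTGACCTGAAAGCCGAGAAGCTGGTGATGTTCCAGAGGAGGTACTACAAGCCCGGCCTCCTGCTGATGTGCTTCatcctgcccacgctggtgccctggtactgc
Scd2: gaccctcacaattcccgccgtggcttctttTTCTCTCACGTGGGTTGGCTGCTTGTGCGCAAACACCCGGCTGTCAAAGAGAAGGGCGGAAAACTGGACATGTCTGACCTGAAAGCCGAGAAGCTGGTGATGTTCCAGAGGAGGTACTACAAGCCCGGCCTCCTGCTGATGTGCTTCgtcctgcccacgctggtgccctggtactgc
Windows of 100 nt found in both genes made up 0.982% of those in *Scd1* and 0.879% of those in *Scd2*, so nearly all positions separate them. *Scd1* also shared 1.76% of its windows with *Scd3*, and neither the 3 elongases nor *Fads1* and *Fads2* shared any with one another. How reads matching several genes were counted is not given in the sources used here, nor is the strand setting. *Elovl1* overlaps *Cdc20* on the other strand over 53 nt of exons, and the antisense genes over *Mgll* (*Gm26588*) and *Elovl6* (*Gm35986*) had mean levels of 0.331 and 0.215 normalized counts.

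The start sites of 3 of the genes called after LPS are shown, *Fasn* and *Elovl5* called lower and *Elovl6* higher. RefSeq promoters (GRCm38.p6) matched 7 of the 10 genes, and *Scd1*, *Scd2* and *Fads1* were not matched. The 250 bases before the start were read on the strand of the gene, at chr11:120824548-120824797 (reverse strand) for *Fasn*, chr9:77917115-77917364 (forward) for *Elovl5* and chr3:129532136-129532385 (forward) for *Elovl6*. Capitals mark a CCAAT box (CCAAT, or ATTGG on the other strand) or an E-box (CACGTG).
Fasn: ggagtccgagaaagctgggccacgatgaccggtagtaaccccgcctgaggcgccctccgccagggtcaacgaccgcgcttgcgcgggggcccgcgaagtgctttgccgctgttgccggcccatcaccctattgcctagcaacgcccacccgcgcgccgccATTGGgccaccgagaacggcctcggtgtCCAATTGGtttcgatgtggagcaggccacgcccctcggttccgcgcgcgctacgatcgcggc
Elovl5: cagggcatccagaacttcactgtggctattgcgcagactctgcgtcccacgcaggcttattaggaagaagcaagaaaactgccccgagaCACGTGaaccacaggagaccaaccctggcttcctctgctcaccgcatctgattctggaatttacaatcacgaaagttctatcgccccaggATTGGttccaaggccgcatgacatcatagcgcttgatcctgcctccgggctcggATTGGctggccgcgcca
Elovl6: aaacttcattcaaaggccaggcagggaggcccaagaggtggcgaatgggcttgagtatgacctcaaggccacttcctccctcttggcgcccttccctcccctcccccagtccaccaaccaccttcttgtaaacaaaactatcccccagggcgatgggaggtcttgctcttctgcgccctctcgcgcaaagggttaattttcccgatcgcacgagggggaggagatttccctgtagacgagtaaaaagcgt
CCAAT, the letters bound by NF-Y, occurred 3 times before *Fasn*, the pair nearest to the start overlapping, and 2 times before *Elovl5*. It also occurred before *Elovl1*, and 33.8% of all 32851 promoters of this length hold it on either strand. The windows of *Acaca*, *Fads2* and *Mgll*, which were also called lower after LPS in WT or KO macrophages, did not hold it. Whether any motif goes with the LPS change was not tested. The E-box was found before *Elovl5* and 1 of the 2 starts of *Mgll*, and in 6.02% of all promoters. The GC box GGGCGG lay before *Elovl1*, *Fads2* and *Mgll*, and in 32.7% of all. A sterol regulatory element, searched as TCACNCCAC, was found in none of the windows of the 7 genes and in 1.05% of all promoters. The only *Acaca* window, chr11:84195188-84195437, lies inside the gene, whose first base is 84129672, so its first start was not searched. An exact match also misses variants of the element, so these genes cannot be said to lack one. None of the 4 motifs was found before *Elovl6*.

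Levels differed widely among the genes. Per kb of exon, *Scd2* was the highest in untreated WT macrophages, at 1238 ± 251 normalized counts per kb (SD, n = 3), followed by *Elovl1* (670 ± 48.0), *Fads1* (580 ± 24.8), *Elovl5* (449 ± 24.7), *Fads2* (265 ± 52.5) and *Fasn* (191 ± 27.3). *Scd1* (61.5 ± 19.0), *Acaca* (46.4 ± 2.53), *Elovl6* (28.9 ± 4.11) and *Mgll* (6.06 ± 1.70) came last. *Fads2* at 205 to 303 and *Fasn* at 160 to 213 per kb overlapped, as did *Scd1* at 39.6 to 73.1 and *Acaca* at 43.6 to 48.4. The other neighbours in this order did not overlap between libraries. Untreated KO macrophages gave the same order. After LPS, *Elovl1* was first in both genotypes, at 674 ± 36.6 in WT and 707 ± 40.5 in KO macrophages per kb, and *Scd2* was the fifth, at 175 ± 37.2 and 158 ± 42.2.

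**Figure D1:**
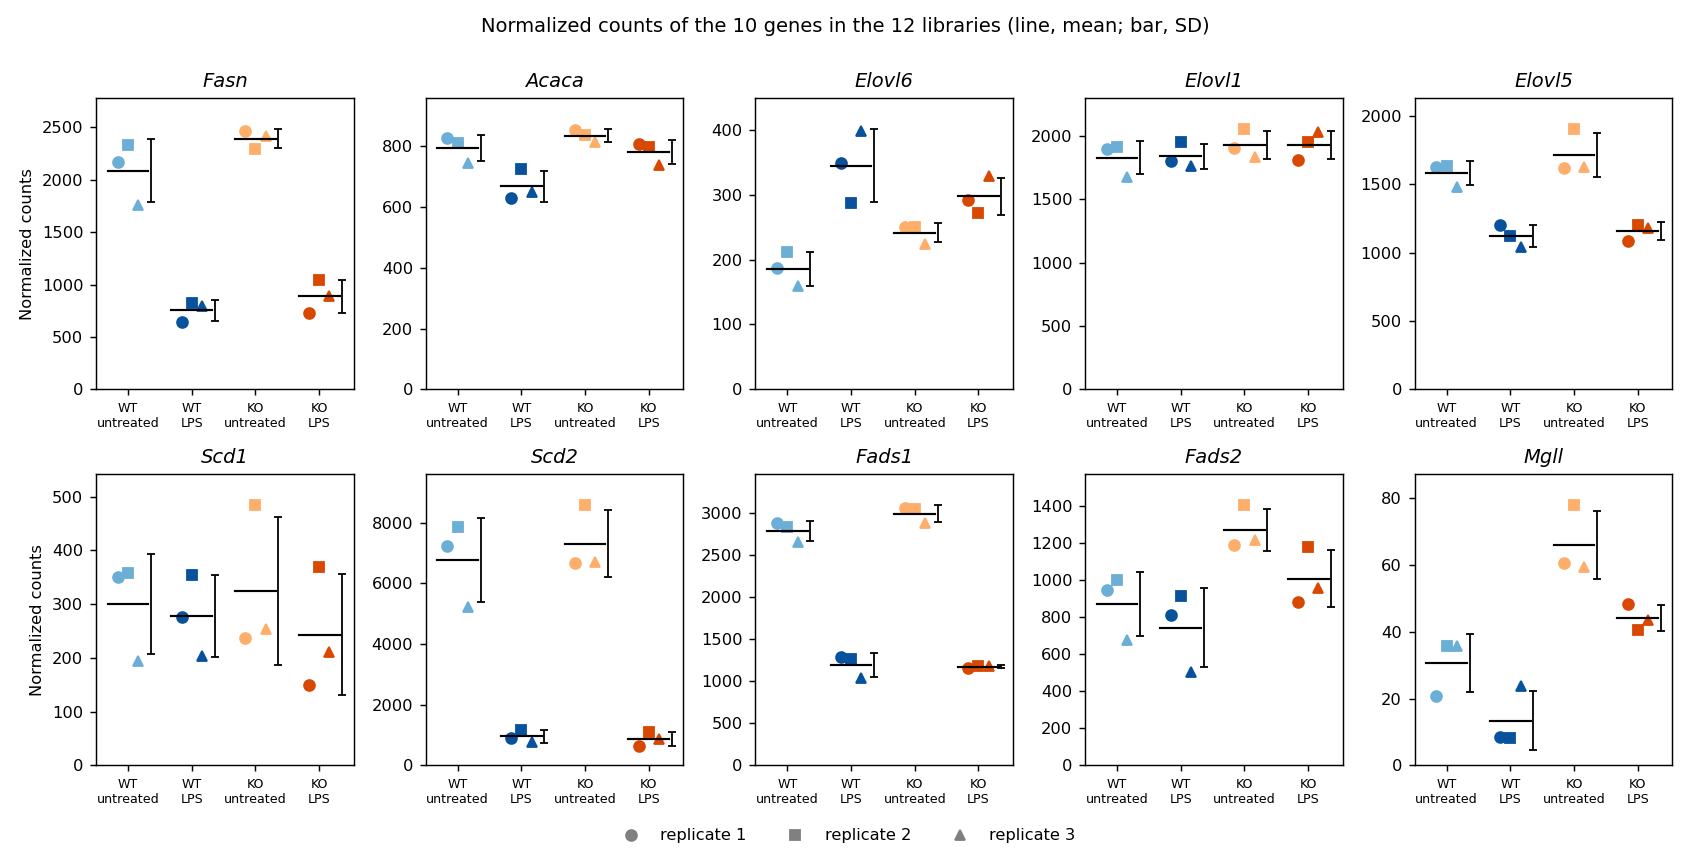
Normalized counts (y axis, linear from 0) of the 10 genes in the 12 libraries, 1 panel per gene, with the groups on the x axis, symbols for the replicate number, a line for the mean and a bar for the SD of 3 libraries. *Scd2*, *Fasn* and *Fads1* are far lower in every LPS-treated library than in any untreated one, *Elovl1* stays between 1675 and 2049 in all 12, and the KO values of *Mgll* lie above the WT values in both conditions.

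The first comparison asked what 4 h of LPS did to these genes in WT macrophages. The desaturases *Scd2* and *Fads1*, the synthase *Fasn* and the lipase *Mgll* fell by at least 2-fold, *Elovl5* and *Acaca* fell by less, *Elovl6* rose except with equal totals, and *Scd1*, *Fads2* and *Elovl1* did not pass the test. The groups of *Mgll* overlapped, at 6, 6 and 17 reads after LPS, and its call was lost when some single libraries were left out. Of the 10 genes, 6 were thus lower and 1 was higher at an adjusted p under 0.05, where 73.2% of the 12656 genes tested were called, 36.6% of them all lower and 36.7% higher. Untreated and treated libraries did not overlap for 6 genes, against 76.9% of all genes. At least 2-fold lower were 4 genes, against 16.9% of all genes, and none was 2-fold higher, against 17.1%. The median log2 fold change was -0.38 over the 10 genes and -0.02 over all genes. In KO macrophages 6 genes were again lower and 1 was higher, 3 of them 2-fold lower, at a median of -0.50 against -0.01. There 72.1% of 12732 genes were called, 35.7% lower and 36.3% higher, and 16.6% were 2-fold lower and 17.3% 2-fold higher. Libraries did not overlap for 8 of the 10 genes, against 76.5% of all. Without the 4 *Xist* libraries, 5 genes were lower and 1 was higher in each genotype, the lost calls being *Acaca* in WT (adjusted p = 0.167) and *Mgll* in KO macrophages (0.144). The genes called in 1 genotype alone were *Acaca*, in WT, and *Fads2*, in KO macrophages, and no difference in the LPS response passed the interaction test, as given further on. With the replicate number as a block *Fads2* was called in WT as well (adjusted p = 0.0118) and *Scd1* in KO macrophages (0.00460), so that 7 genes were lower in each. With all 12 libraries in one fit, 4 genes were lower and 0 higher in KO macrophages.

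*Scd2* (ENSMUSG00000025203) lost most of its transcript. It measured 7224, 7845 and 5217 normalized counts in the untreated WT libraries and 915, 1176 and 776 in the LPS-treated ones. In KO macrophages it measured 6668, 8567 and 6686 untreated and 624, 1085 and 872 after LPS. Every treated library lay far below every untreated one, with no overlap in either genotype. The log2 fold change was -2.82 (SE 0.17, 95% interval -3.21 to -2.43) in WT and -3.11 (SE 0.19, -3.54 to -2.68) in KO macrophages, with limma adjusted p values of 4.55e-07 and 9.19e-07.

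*Scd1* (ENSMUSG00000037071), the copy that prevails in liver and fat, behaved otherwise. Its levels were 351, 358 and 194 untreated and 276, 355 and 203 after LPS in WT macrophages, and 238, 484 and 254 untreated and 150, 369 and 211 after LPS in KO macrophages. The groups overlapped throughout. The log2 fold change was -0.10 in WT (95% interval -0.69 to 0.49, limma adjusted p = 0.753) and -0.44 in KO macrophages (-1.25 to 0.37, adjusted p = 0.289), intervals wide enough to hold a moderate fall. Each KO library treated with LPS was lower than the untreated one of its number, and with the replicate number as a block the KO value passed the test (adjusted p = 0.00460). The WT value did not. With the *Xist* libraries as a covariate the KO value passed as well (0.0165).

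The mix of the 2 stearoyl-CoA desaturases differed between untreated and treated libraries. Within a library, where no scaling enters, there were 20.6, 21.9 and 27.0 reads of *Scd2* for each read of *Scd1* in untreated WT macrophages and 3.32, 3.32 and 3.82 after LPS. In KO macrophages these ratios were 28.0, 17.7 and 26.3 untreated and 4.16, 2.94 and 4.14 after LPS. Per kb of exon, *Scd2* made up 94.9% to 96.0% of both transcripts in untreated WT libraries and 74.8% to 77.4% after LPS, and 94.1% to 96.2% and 72.5% to 78.8% in KO libraries. *Scd2* thus remained the more abundant copy in all 12 libraries.

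*Fads1* (ENSMUSG00000010663; chr19:10182888-10196877, forward strand) and *Fads2* (ENSMUSG00000024665; chr19:10062765-10101746, reverse strand) encode the front-end desaturases of polyunsaturated fatty acids and lie side by side on chromosome 19. *Fads1* measured 2881, 2830 and 2654 untreated and 1291, 1266 and 1032 after LPS in WT macrophages, and 3054, 3040 and 2879 against 1155, 1181 and 1181 in KO macrophages. It fell in both, by a log2 fold change of -1.23 (SE 0.09) in WT and -1.35 (SE 0.06) in KO macrophages, with limma adjusted p values of 1.29e-06 and 8.62e-08. *Fads2* measured 945, 998 and 675 untreated and 809, 914 and 506 after LPS in WT macrophages, which overlap, and 1191, 1403 and 1218 against 883, 1178 and 958 in KO macrophages, which do not. Its log2 fold change was -0.25 (95% interval -0.75 to 0.24, limma adjusted p = 0.313) in WT and -0.34 (-0.60 to -0.08, adjusted p = 0.0231) in KO macrophages. All 3 WT pairs of the same number went down, and with the replicate block the WT value passed the test (adjusted p = 0.0118). The KO call was lost, at adjusted p values of 0.0756 to 0.0798, without untreated replicate 2, treated replicate 1 or treated replicate 3, with all 12 libraries in one fit (0.133) and without a variance trend (0.0586). In reads, *Fads1* exceeded *Fads2* by 2.84 to 3.93 times in untreated and 1.39 to 2.04 times in LPS-treated WT libraries, and by 2.17 to 2.56 and 1.002 to 1.31 times in KO libraries.

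**Figure D2:**
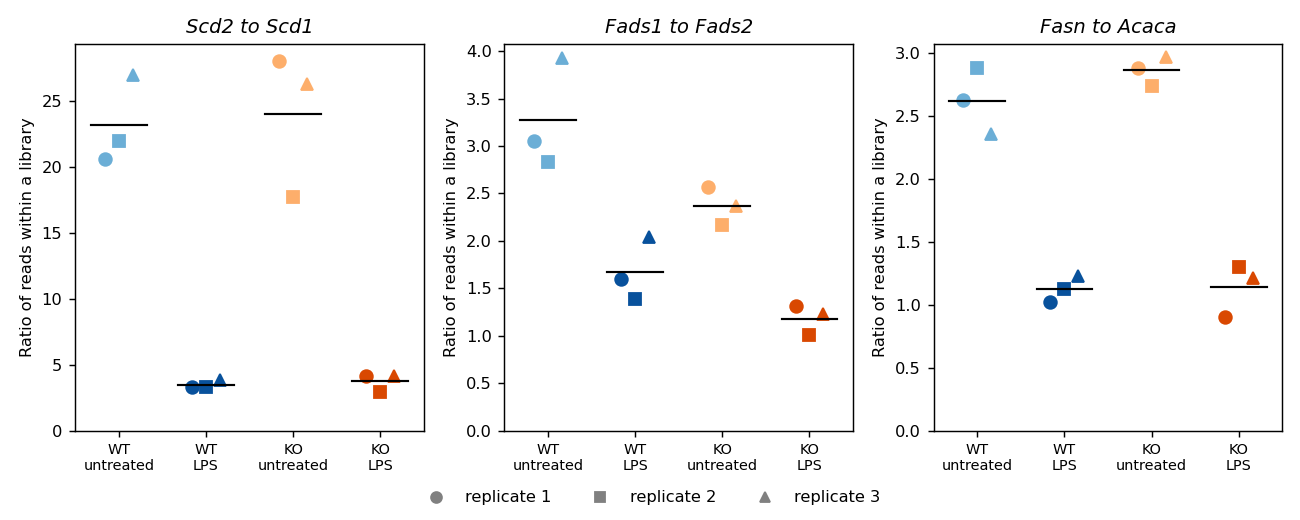
Ratio of reads of 2 genes within each library (y axis, linear from 0, not corrected for gene length) in the 4 groups, with symbols for the replicate number and lines for group means. *Scd2* to *Scd1* falls from 17.7 to 28.0 in untreated libraries to 2.94 to 4.16 in LPS-treated ones, and *Fads1* to *Fads2* and *Fasn* to *Acaca* are also lower in every LPS-treated library than in any untreated library of the same genotype.

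The enzymes that build palmitate were unequally affected. *Fasn* (ENSMUSG00000025153; chr11:120805846-120824547, reverse strand) measured 2173, 2334 and 1755 untreated and 642, 820 and 797 after LPS in WT macrophages, and 2461, 2292 and 2419 against 728, 1041 and 894 in KO macrophages. It fell by 1.47 (SE 0.12) and 1.44 (SE 0.12) on the log2 scale, with limma adjusted p values of 3.91e-06 and 6.31e-06. *Acaca* (ENSMUSG00000020532; chr11:84129672-84401651, forward strand) went from 744 to 826 untreated to 628 to 726 after LPS in WT macrophages, without overlap, and fell by 0.25 on the log2 scale (SE 0.08, limma adjusted p = 0.0164). In KO macrophages it went from 814 to 854 to 736 to 807, also without overlap, at a log2 fold change of -0.10 (95% interval -0.25 to 0.05, limma adjusted p = 0.207). The WT call for *Acaca* was lost without untreated replicate 1 or 2 or treated replicate 1 (adjusted p = 0.0589 to 0.0623). There were 2.36 to 2.88 reads of *Fasn* for each of *Acaca* in untreated and 1.02 to 1.23 in treated WT libraries, and 2.74 to 2.97 and 0.903 to 1.30 in KO libraries.

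The 3 elongases went in different directions. *Elovl5* (ENSMUSG00000032349; chr9:77917364-77984519, forward strand), which lengthens polyunsaturated chains, went from 1482 to 1634 to 1043 to 1202 normalized counts in WT and from 1619 to 1903 to 1089 to 1207 in KO macrophages. It fell in both, by 0.50 (SE 0.07) and 0.56 (SE 0.08) on the log2 scale, with limma adjusted p values of 1.67e-04 and 2.48e-04. *Elovl1* (ENSMUSG00000006390; chr4:118428093-118432953, forward strand), the elongase of very long saturated chains, measured 1675 to 1906 untreated and 1763 to 1950 after LPS in WT macrophages, and 1833 to 2049 and 1809 to 2028 in KO macrophages. Its log2 fold changes were 0.01 (95% interval -0.15 to 0.17) and 0.00 (-0.16 to 0.16), with limma adjusted p values of 0.909 and 0.995.

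*Elovl6* (ENSMUSG00000041220; chr3:129532355-129638495, forward strand), which lengthens palmitate to stearate, was the 1 gene of the 10 that rose on the deposited scale, though not with equal totals. It measured 188, 211 and 159 untreated and 349, 287 and 398 after LPS in WT macrophages, and 250, 251 and 224 against 291, 272 and 328 in KO macrophages. The groups did not overlap in either genotype, and the gap was wider in WT. The log2 fold change was 0.88 (SE 0.15, limma adjusted p = 4.41e-04) in WT and 0.30 (SE 0.10, adjusted p = 0.0288) in KO macrophages. The KO call was lost without untreated or treated replicate 3 (adjusted p = 0.103 and 0.102), with all 12 libraries in one fit (0.0603) and with DESeq2 (0.0653), and its sign turned to -0.39 with total count scaling and -0.02 with upper quartile scaling.

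*Mgll* (ENSMUSG00000033174; chr6:88724412-88828360, forward strand) was the scarcest of the genes, with 6 to 91 reads per library. It measured 20.8, 35.6 and 35.8 normalized counts untreated and 8.44, 8.19 and 23.6 after LPS in WT macrophages, where the latter rest on 6, 6 and 17 reads. In KO macrophages it measured 60.7, 77.8 and 59.4 untreated and 48.4, 40.5 and 43.6 after LPS. The WT groups overlapped and the KO groups did not. The log2 fold change was -1.26 (SE 0.42, limma adjusted p = 0.0233) in WT and -0.56 (SE 0.18, adjusted p = 0.0205) in KO macrophages. The WT call was lost without untreated replicate 2 or 3 or treated replicate 1 or 2 (adjusted p = 0.0736 to 0.0791), and the KO call without untreated or treated replicate 2 (0.0809 and 0.0529), without the *Xist* libraries (0.144), with quantile normalization (0.109), all 12 libraries in one fit (0.159) and DESeq2 (0.0758).

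**Figure D3:**
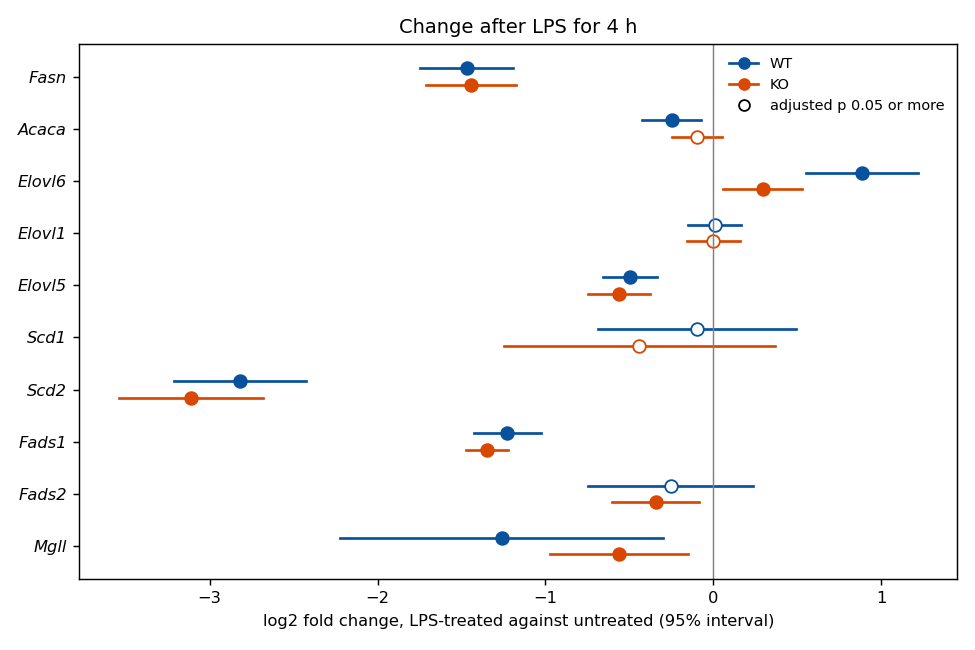
Log2 fold change of LPS-treated against untreated macrophages (x axis, 95% interval as a line) of the 10 genes, for WT and KO macrophages, with filled circles at an adjusted p under 0.05 and open ones otherwise. *Scd2* is lowest at -2.82 and -3.11, *Fasn* and *Fads1* lie between -1.23 and -1.47, *Elovl1* lies at 0, and *Elovl6* is the 1 gene whose intervals lie above 0 in both, which does not hold with equal totals in either genotype.

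These values depend on how untreated and LPS-treated libraries are scaled, since normalized counts summed to 16361900 to 17385000 in untreated and 25980300 to 28239000 in LPS-treated libraries. Scaling to equal totals moved the median log2 fold change of all genes from -0.02 to -0.74 in WT and from -0.01 to -0.69 in KO macrophages, and upper quartile scaling moved it to -0.34 and -0.33. Relative to the median of all genes, the change of *Scd2* was -2.80 and -3.10 as deposited and -2.81 and -3.10 with equal totals. On the same footing *Elovl6* stood at 0.90 and 0.31 under both scalings, and *Elovl1* at 0.03 and 0.01 as deposited and 0.02 and 0.01 with equal totals. With equal totals *Elovl6* itself was at 0.16 (limma adjusted p = 0.295) in WT macrophages. At an adjusted p under 0.05, 9 of the 10 genes were then lower in WT and all 10 in KO macrophages, where 8943 of 12656 and 8582 of 12732 genes were lower, that is 70.7% and 67.4%.

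The second comparison asked whether the genes differed between KO and WT macrophages. None of the 10 passed the limma test, untreated or after LPS, where 0.538% of 12461 and 0.816% of 12504 genes were called, 0.193% and 0.232% at 2-fold or more. The unadjusted limma p was under 0.05 for 3 of the 10 genes in each condition, against 10.8% of all genes untreated and 10.6% after LPS. *Mgll*, singled out on these same libraries before, was among the 3 in each condition, so these counts are no independent evidence. edgeR called none in either. DESeq2 called *Fads2* and *Mgll* higher in untreated and *Mgll* higher in LPS-treated KO macrophages. The median log2 fold change over the 10 genes was 0.12 untreated and 0.06 after LPS, against -0.01 and -0.00 over all genes tested. KO values lay above all WT values for *Elovl6*, *Fads2* and *Mgll* in untreated macrophages, as for 8.41% of all genes, and for *Acaca* and *Mgll* after LPS, as for 8.35%. For no gene of the 10 did they lie below all WT values, as for 7.98% and 7.73% of all. Groups without overlap made up 16.4% and 16.1% of all genes in either direction.

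*Mgll* showed the widest gap. It had been singled out on these same libraries before, so its values are a description and no independent evidence of a difference. Its untreated values of 59.4 to 77.8 in KO lay above the 20.8 to 35.8 in WT macrophages, at a log2 fold change of 1.11 (SE 0.24, 95% interval 0.56 to 1.65). The limma p was 0.00144 unadjusted and 0.109 adjusted. After LPS, 40.5 to 48.4 stood above 8.19 to 23.6, at a log2 fold change of 1.81 (SE 0.39, 0.94 to 2.67) with an unadjusted p of 8.73e-04 and a limma adjusted p of 0.0803. In reads, the 3 KO libraries together held 260 untreated and 103 after LPS, and the WT libraries 129 and 29. The difference thus lay near the threshold, and it passed with DESeq2 (adjusted p = 0.0114 untreated, 0.0318 after LPS) and with limma on genes without a minimum level (0.0300 and 0.0384). After LPS it passed without WT replicate 3 (log2 fold change 2.27, adjusted p = 0.0185). Without the 4 *Xist* libraries it was 0.73 untreated (adjusted p = 0.373) and 1.64 after LPS (0.375), with 2 libraries a group.

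In untreated macrophages *Fads2* measured 1191 to 1403 in KO against 675 to 998 in WT libraries, a log2 fold change of 0.56 (SE 0.14, 95% interval 0.24 to 0.88), with an unadjusted p of 0.00353 and a limma adjusted p of 0.152. After LPS the groups overlapped, at 883 to 1178 against 506 to 914, with 0.47 (SE 0.19, adjusted p = 0.421). The untreated value passed with DESeq2 (adjusted p = 0.00718) and without a minimum level (0.0278). Its neighbour *Fads1* differed by 0.10 (95% interval -0.02 to 0.22) untreated and -0.02 (-0.22 to 0.18) after LPS. The within-library ratio of *Fads1* to *Fads2* was accordingly lower in KO libraries, at 2.17 to 2.56 against 2.84 to 3.93 untreated and 1.002 to 1.31 against 1.39 to 2.04 after LPS. On the log2 scale the ratio differed by -0.46 untreated and -0.49 after LPS. An exact two-sided permutation test gave p = 0.1 in both, the smallest value that 3 against 3 libraries allow. Any groups without overlap give this value, so the test adds nothing to the ranges. How often other pairs of genes separate in this way was not tested.

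*Elovl6* measured 224 to 251 in untreated KO against 159 to 211 in untreated WT macrophages, with a log2 fold change of 0.38 (SE 0.12, 95% interval 0.12 to 0.65), an unadjusted p of 0.0103 and a limma adjusted p of 0.251. After LPS the value was -0.20 (-0.50 to 0.09, adjusted p = 0.657), with overlapping libraries. *Acaca* differed by 0.08 (-0.06 to 0.21) untreated and 0.23 (0.04 to 0.41) after LPS, with limma adjusted p values of 0.731 and 0.363. *Fasn* differed by 0.21 (-0.02 to 0.43) and 0.23 (-0.07 to 0.53). For *Scd1* the intervals were -0.61 to 0.79 untreated and -0.90 to 0.39 after LPS, and for *Scd2* -0.23 to 0.48 and -0.59 to 0.26. Those of *Elovl1* and *Elovl5* stayed within -0.13 and 0.29.

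**Figure D4:**
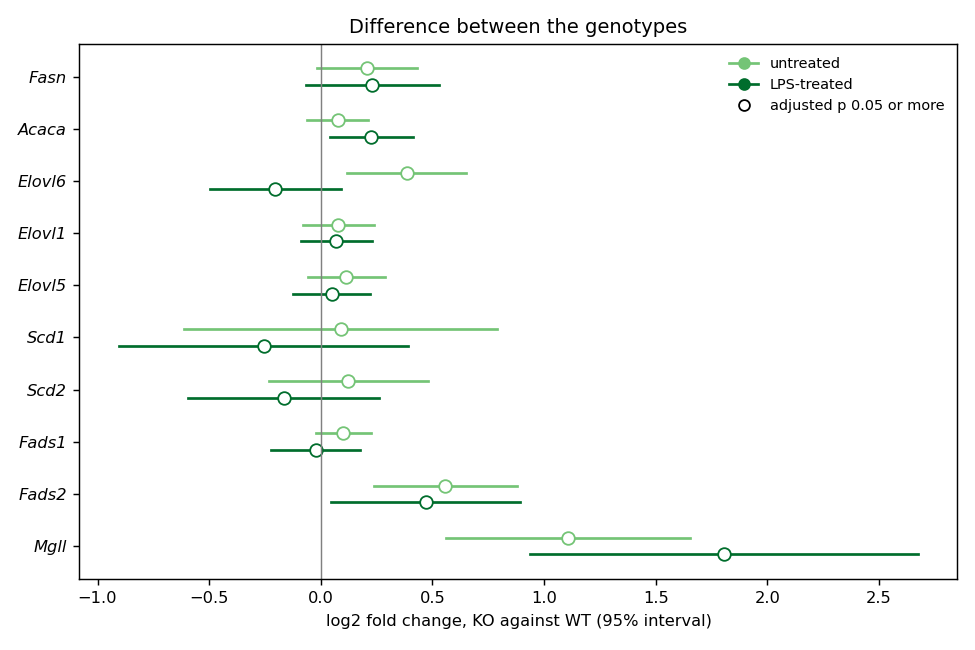
Log2 fold change of KO against WT macrophages (x axis, 95% interval as a line) of the 10 genes, untreated and after LPS, with open circles for an adjusted p of 0.05 or more, which applies to all 20 values. *Mgll* lies farthest to the right at 1.11 and 1.81, *Fads2* at 0.56 and 0.47, and *Elovl6* at 0.38 untreated and -0.20 after LPS.

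Whether the LPS response itself differed between the genotypes was tested as an interaction over the 12 libraries, in which 0.00787% of 12711 genes were called, that is 1 gene. None of the 10 genes passed, and 537 of all genes and 1 of the 10 had an unadjusted p under 0.05. DESeq2 and edgeR called none of the 10 either. The gene among the 10 was *Elovl6*, whose response was smaller in KO macrophages by 0.59 on the log2 scale (SE 0.19, 95% interval -0.997 to -0.18), with an unadjusted p of 0.00824 and a limma adjusted p of 0.999. For *Scd2* the difference between the responses was -0.29 (-0.92 to 0.34), for *Fasn* 0.02 (-0.38 to 0.43), for *Fads1* -0.12 (-0.36 to 0.11) and for *Mgll* 0.70 (-0.36 to 1.76).

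The spread between libraries differed by gene, and that of *Scd1*, *Scd2* and *Fads2* went along with the replicate number. The coefficient of variation of *Scd1* was 30.9% and 27.3% in untreated and LPS-treated WT and 42.3% and 46.4% in KO macrophages, against medians over all genes of 6.91% to 9.35%. Replicate 3 of WT macrophages held 64.4% of its group mean of *Scd1* untreated and 73.1% after LPS, 77.2% and 81.2% of *Scd2*, and 77.4% and 68.1% of *Fads2*. Replicate 2 of KO macrophages, an *Xist* library, held 149% and 152% of *Scd1*, 117% and 126% of *Scd2*, and 110% and 117% of *Fads2*. Replicate 1 of WT macrophages, also an *Xist* library, held 117% and 99.3% of *Scd1*. *Elovl6* did not follow the number, at 85.3% untreated and 115% after LPS in WT replicate 3 and 92.8% and 110% in KO replicate 3. Nor did *Fasn*, at 84.1% and 106% in WT replicate 3. *Fads1* and *Elovl1* varied less, by 1.28% to 11.9% and 5.43% to 7.16%. Over all genes, same-numbered untreated and LPS-treated libraries deviated together (r = 0.17 to 0.33 in the 6 pairs). The part of the ribosomal reads in this spread was not tested.

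**Figure D5:**
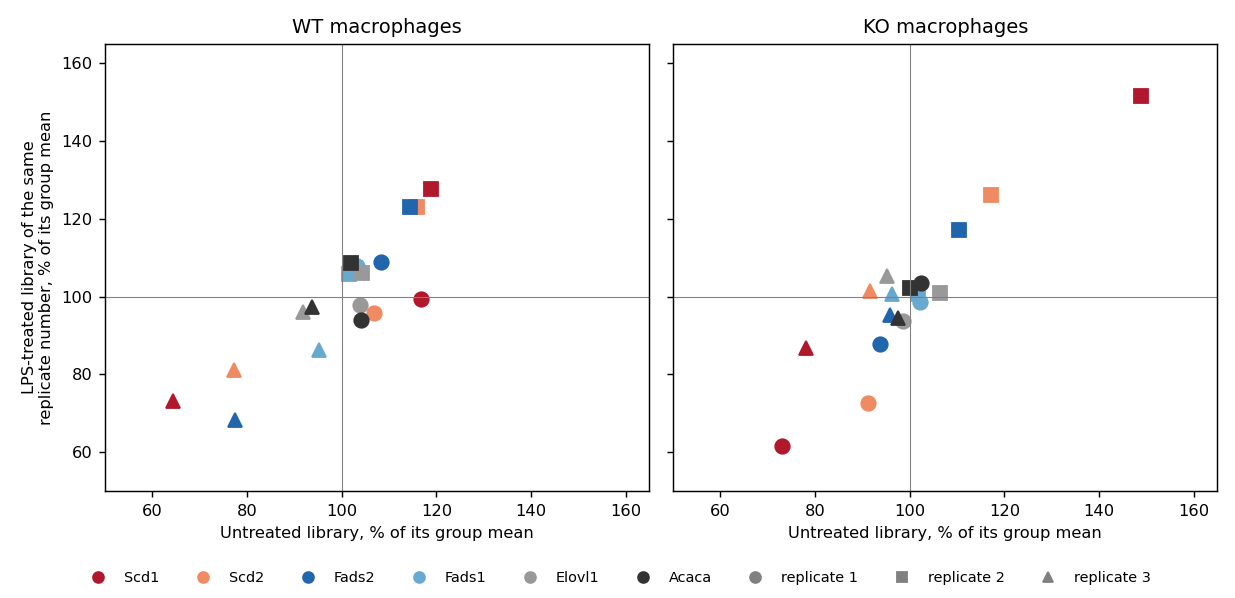
Level of 6 genes in each LPS-treated library (y axis, % of its group mean) against the untreated library of the same genotype and replicate number (x axis, % of its group mean), for WT and KO macrophages, with colours for genes and symbols for replicate numbers. The desaturases *Scd1*, *Scd2* and *Fads2* of WT replicate 3 lie low in both conditions, at 64.4% to 81.2%, those of KO replicate 2 lie high in both, at 110% to 152%, and *Elovl1* and *Acaca* stay near 100%.

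Genes of neighbouring pathways were counted in 7 lists. Beside their counts stand the shares of all genes called after LPS, 36.7% higher and 36.6% lower in WT and 36.3% and 35.7% in KO macrophages, and medians over all genes of -0.02 and -0.01. Of 12 tested genes of SREBP and LXR control, 6 rose and 4 fell after LPS in WT macrophages (6 and 5 in KO), with a median log2 fold change of 0.25 (0.12 in KO). *Rxra*, the partner of LXR, fell by 2.79 in WT and 2.84 in KO macrophages on the log2 scale, and *Mylip*, an LXR target that degrades the LDL receptor, by 1.56 and 1.46, while *Scap*, the SREBP escort, rose by 0.71 in both. Of 10 genes of acetyl-CoA and malonyl-CoA metabolism, 5 rose and 2 fell in WT (4 and 1 in KO). The genes had a median of 0.24 (0.17 in KO), and not all of them supply these compounds. Among them were *Slc25a1*, the mitochondrial citrate carrier, at 0.42 in WT and 0.39 in KO macrophages, and *Mcat* (0.86 and 0.89) and *Oxsm* (0.37 and 0.25), which serve mitochondrial fatty acid synthesis. The log2 fold changes of these 6 genes passed the limma test in both genotypes, the highest adjusted p being 0.0406 for *Oxsm* in KO macrophages.

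Of 11 tested genes among the other elongation enzymes and desaturases, 4 rose and 3 fell in both genotypes, at medians of -0.03 and 0.02. *Fads6* fell by 2.29 in WT and 1.83 in KO macrophages, whereas *Hacd2*, a dehydratase of the elongation cycle, rose by 0.69 and 0.61, and *Degs2*, a sphingolipid desaturase, by 1.02 and 1.03. *Elovl2*, *Elovl3*, *Elovl4*, *Scd3* and *Scd4* were below a mean of 10 normalized counts and not tested. Of 12 genes of fatty acid activation and uptake, 5 rose and 2 fell in WT and 4 rose and 2 fell in KO macrophages, at a median of 0.17 in both. The acyl-CoA synthetases went opposite ways, with *Acsl1* rising by 2.82 and 3.17 and *Acsl3* falling by 3.04 and 3.00, and the transporter *Slc27a1* fell by 1.10 and 1.03.

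Of 18 genes of glycerolipid synthesis, 9 rose and 3 fell in WT (7 and 3 in KO), at a median of 0.14 (0.11). The phosphatidate phosphatase *Lpin1* fell by 4.96 and 5.40, from 815 to 992 normalized counts untreated to 25.3 to 30.0 after LPS in WT libraries, and its paralogue *Lpin2* rose by 0.69 and 0.64, as did the acyltransferase *Agpat1* (0.64 and 0.54). Lipolysis and lipid droplet genes, the list nearest to *Mgll* in function, had 8 of 11 lower and 2 higher in both genotypes and a median of -0.54 (-0.51 in KO). The diacylglycerol lipases that make the substrate of *Mgll* in endocannabinoid turnover fell, with log2 fold changes of -4.43 and -4.30 for *Dagla* and -1.48 and -1.61 for *Daglb*, while the hormone-sensitive lipase *Lipe* rose by 1.46 and 1.68. Of the genes of fatty acid oxidation, 3 of 18 rose and 7 fell in WT and 4 of 17 rose and 7 fell in KO macrophages. There *Pparg*, a lipid-sensing receptor, fell by 2.59 and 2.45, the coactivator *Ppargc1b* rose by 2.44 and 2.46, and the dehydrogenase *Acadl* rose by 0.57 and 0.51. Between the genotypes and in the interaction, no gene of the 7 lists passed the limma test. Unadjusted p values were under 0.05 for 11 of their 91 genes tested untreated and 6 of 91 after LPS, that is 12.1% and 6.59%, against 10.8% and 10.6% of all genes.

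Over the 12 libraries, the level of *Scd2* followed those of *Fads1* (r = 0.99 on the log2 scale), *Fasn* (0.98) and *Elovl5* (0.97), and ran against *Elovl6* (-0.79). These values mostly repeat the gap between untreated and treated libraries, which all 12 share. The genes most like *Scd2* among all 12711 were *Pacc1* and *Smarcc1* (r = 0.996 and 0.995), those most like *Fads1* were *Nceh1* and *Septin9* (0.998 and 0.997), those most like *Fasn* were *Kif14* and *Lrrc20* (both 0.990), and those most like *Elovl5* were *Srxn1* and *Gpt* (both 0.984). For the other genes the best matches were looser. They were *Prss16* (0.962) and *Rbmx* (0.909) for *Acaca*, *Ckb* (0.932) and *Rbbp7* (0.913) for *Fads2*, *Zfp382* (0.925) and *Tpm3-rs7* (0.922) for *Elovl6*, *Abcd3* (0.892) and *Sdf2l1* (0.878) for *Scd1*, and *Tm7sf2* (0.831) and *Tmem109* (0.816) for *Elovl1*. *Mgll* was closest to *Ccnb2* (0.948) and *Tgfbi* (0.940).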

How the data were processed

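RNA had been sequenced from 12 macrophage libraries in 4 groups of 3, which the authors call biological triplicates. The authors trimmed reads with Trimmomatic (0.39), aligned them to GRCm38 (annotation release 100) with STAR (2.7.4a), assigned them to genes by featureCounts (Subread 2.0.1) and deposited a signal, gene counts divided by DESeq2 size factors of all 12 libraries. Division by the smallest value of each library gave whole reads for 100.0% of the values (tolerance 1e-06). Positions came from a GRCm38 GENCODE annotation.

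Log2 of the normalized count plus 1 was fitted with limma (3.58.1, R 4.3.3) with a trended variance, keeping genes whose mean over the libraries compared was 10 or more, and p was adjusted (Benjamini-Hochberg) over all of them. Fits were unpaired, as in the study. The added 1 draws fold changes of low genes toward 0, but those of *Mgll*, the scarcest of the 10, were not generally smaller than with DESeq2. After LPS they were -1.26 against -1.20 with DESeq2 in WT and -0.56 against -0.57 in KO macrophages. For KO against WT they were 1.11 against 1.10 untreated and 1.81 against 1.72 after LPS. The alternatives were pseudocounts, filters, scalings, variance models, all libraries in one fit, the replicate number as a block, edgeR (4.0.16) and DESeq2 (1.42.0) on whole reads, each library left out in turn, and, chosen after the values were seen, the *Xist* libraries left out or as a covariate. Fits were also run on simulated counts with the same spread setting for every gene and no pairing of libraries. This is no check on genes as variable as *Scd1*. Intervals cover the spread between libraries.

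The genes and lists were chosen with earlier results of these data known. Named are the 10 genes, the targeted gene, the 3 genes with the smallest adjusted p in the WT comparison of each list, any list gene called between the genotypes, and the 2 genes most correlated with each of the 10. Within a genotype, replicate numbers pair untreated and treated libraries (correlation of deviations from group means 0.33, 0.19 and 0.24 in WT, 0.29, 0.28 and 0.17 in KO, each the highest and over 0.1), but not WT with KO libraries (-0.03, -0.04 and 0.24 untreated, -0.20, -0.04 and 0.06 after LPS).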

Additional observations from a re-analysis of the deposited data

How the results depend on the processing

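Across 1096 refits of single genes, 1001 kept the direction and the side of the threshold. With the direction kept, 24 lost a call and 20 gained one. The other 51 changed sign, with or without a change of call. The cause of these changes was not tested, beyond the fewer libraries or genes that a setting keeps. With total count scaling the LPS comparison held 0 genes higher in WT, and 0 higher, 10 lower and 7 lower by 2-fold in KO macrophages. In KO macrophages 0 genes were higher with upper quartile scaling, all libraries in one fit or DESeq2, and 0 to 1 when single libraries were left out (0 without untreated or treated replicate 3). *Elovl6* was 2-fold higher in WT with quantile normalization (1 gene) and without treated replicate 2 (0 to 1 over the libraries left out). Between KO and WT macrophages, 2 genes were higher untreated, 1 of them by 2-fold, without a minimum level, with DESeq2 and with the replicate number as a block, although the numbers do not pair the genotypes. After LPS 1 gene was higher, by 2-fold, without a minimum level, with all libraries in one fit or DESeq2, and 0 to 1 when single libraries were left out (1 without WT replicate 3). The block changed the call of *Fads2* in WT (limma adjusted p = 0.0118) and *Scd1* in KO macrophages (0.00460) in the LPS comparisons, and no other.

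Signs turned as follows. The LPS log2 fold change of *Elovl1* was -0.72, -0.31, -0.49 and -0.028 for WT and -0.69, -0.32, -0.52 and -0.025 for KO macrophages with total count scaling, upper quartile scaling, quantile normalization and edgeR, and -0.00056 in KO with DESeq2. The LPS value of *Elovl6* in KO macrophages was -0.39 with total count scaling, where it passed as lower (limma adjusted p = 0.00693). With upper quartile scaling it was -0.023 and did not pass (0.8455). That of *Scd1* in WT was 0.11 with quantile normalization. Total count scaling gave 0.0072 for *Fads1* (KO against WT after LPS) and 0.030 for *Elovl1* (interaction), and quantile normalization -0.024 for *Fasn* (interaction). Without the *Xist* libraries, *Scd1* was 0.029 (LPS in WT) and -0.10 (KO against WT, untreated), *Fasn* -0.0028 and *Fads1* 0.031 (KO against WT, LPS), and *Fasn* -0.27 and *Elovl5* 0.0097 (interaction). With single libraries left out, LPS values ranged from -0.052 to 0.042 (*Elovl1*) and -0.39 to 0.11 (*Scd1*) in WT and -0.037 to 0.045 (*Elovl1*) in KO macrophages. KO against WT values ranged from -0.24 to 0.28 (*Scd1*) and -0.053 to 0.24 (*Scd2*) untreated, and from -0.0030 to 0.099 (*Elovl5*), -0.12 to 0.036 (*Fads1*), -0.60 to 0.042 (*Scd1*) and -0.35 to 0.047 (*Scd2*) after LPS. Interaction values ranged from -0.046 to 0.052 (*Elovl1*), -0.12 to 0.011 (*Elovl5*), -0.34 to 0.086 (*Fads2*) and -0.097 to 0.16 (*Fasn*).

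Among all genes, those called untreated between the genotypes numbered 32 higher and 35 lower, and ranged from 1 and 3 without a variance trend to 163 and 140 with DESeq2. After LPS they numbered 63 and 39, and ranged from 3 and 2 to 120 and 95 under the same settings. With total count scaling, LPS calls went from 4639 higher and 4627 lower to 2181 and 8943 in WT, and from 4626 and 4548 to 2228 and 8582 in KO macrophages. Interaction calls ranged from 0 without the *Xist* libraries to 25 with DESeq2. *Mgll*, at 6 to 91 reads a library, is the gene most limited by depth.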

Other observations

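The following genes were named after their values were seen. Between the genotypes, the SREBP and LXR list held 4 of its 12 genes at an unadjusted limma p under 0.05 in untreated macrophages, against 1345 of all 12461 genes (10.8%), 3 with higher and 1 with lower values in KO macrophages. *Srebf2*, the SREBP of cholesterol synthesis, measured 4695, 4750 and 4393 normalized counts in WT libraries against 5877, 5355 and 5663 in KO libraries, with a log2 fold change of 0.29, an unadjusted p of 8.97e-04 and a limma adjusted p of 0.0860. *Insig1*, whose protein holds back SCAP when sterols are plentiful, measured 3559, 3669 and 2718 against 4683, 4945 and 4247. Its log2 fold change was 0.49, with an unadjusted limma p of 0.00223 and a limma adjusted p of 0.128. The other higher one was *Srebf1*, at 0.18 (limma adjusted p = 0.343), and the lower one *Mylip*, at -0.23 (0.272). KO values lay above all WT values for *Srebf2* and *Insig1* after LPS as well, as for 8.35% of all genes (8.41% untreated). They measured 6754 to 7101 against 5912 to 6462 and 4333 to 4856 against 3745 to 4056. The log2 fold changes after LPS were 0.17 and 0.21, with limma adjusted p values of 0.356 and 0.283.

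*Hilpda*, an inhibitor of the lipase ATGL on lipid droplets, had the opposite sign, at 154 to 206 in KO against 254 to 275 in WT macrophages untreated and 110 to 116 against 145 to 195 after LPS (log2 fold change -0.52 and -0.55, limma adjusted p = 0.128 and 0.149). *Lpcat2*, a lysophosphatidylcholine acyltransferase of inflammatory cells, measured 376 to 460 in KO against 246 to 353 in WT macrophages untreated (0.57, limma adjusted p = 0.146) and 496 to 867 against 362 to 615 after LPS (0.56, 0.395). None of these passed the test.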
